A study of Bos taurus with 11 samples.

Results

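The genes described here are 10 genes of the Hippo pathway, namely YAP1, WWTR1, TEAD1, TEAD3, LATS1, LATS2, NF2, MOB1A, STK3 and SAV1, in single bovine blastocysts at day 7. They were chosen by name, and a transcript was counted as one of them when its RefSeq accession mapped to that bovine symbol. Of the 10 genes, 5 had a transcript in both tables of normalized counts: WWTR1 (NM_001193047), STK3 (NM_001079607), SAV1 (NM_001191362), LATS1 (NM_001192866) and MOB1A (NM_001076338). No row of either table mapped to YAP1, TEAD1, TEAD3, LATS2 or NF2, so these 5 genes were not analysed here. Each of the 5 genes without a row has only predicted accessions in the RefSeq table used for the names, whereas each of the 5 genes with a row has a curated one, and both tables hold curated accessions throughout. The 2 tables list 8576 and 12047 transcripts in all.

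The early blastocysts compared were 3 WT controls, 4 with GATA3 KO and 4 with CDX2 KO, each giving 1 RNA-seq library from its polyadenylated RNA (Smart-seq2). All of them, the controls included, had received mRNA of BE3, a cytosine base editor, by injection as zygotes. The KO embryos were injected with a mixture of sgRNAs against GATA3 or against CDX2 in addition, which direct the editor to sites where a C to T change makes a premature stop codon. GATA3 and CDX2 are transcription factors of the trophectoderm (TE), the outer layer of the blastocyst, and the study asked what their loss does to the early lineages. Because zygotes were injected, an embryo can carry more than 1 edit, and each library holds the TE and the inner cell mass (ICM) of a whole embryo together. Fewer cells of a type and less RNA per cell can therefore not be told apart. One table holds the WT and the GATA3 KO embryos, the other the same WT embryos and the CDX2 KO embryos, and every comparison stays within 1 table.

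The Hippo pathway is a kinase cascade that reads cell contact and polarity. The kinases STK3 and STK4, with their partner SAV1, activate LATS1 and LATS2, which work with the MOB1 proteins MOB1A and MOB1B and with the membrane scaffold NF2. Active LATS kinases phosphorylate the coactivators YAP1 and WWTR1 (also called TAZ), which then stay in the cytoplasm or are degraded. In outer cells of the early embryo the cascade is restrained by apical polarity, and the coactivators enter the nucleus, bind TEAD transcription factors and turn on TE genes.

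The embryos had 150057 to 540775 counts each in the table that holds GATA3 KO, and 100731 to 662962 in the other. A floor of 3 counts, taken as the least that can be told from 0, is worth between 1.29 and 4.66 normalized counts in the first table and between 1.61 and 6.99 in the second. This floor covers counting error only, since the libraries carry no molecular identifiers. The GATA3 transcript was at 71.3 to 87.6 normalized counts in the WT embryos and at 9.85 to 13.1 in the GATA3 KO embryos. The CDX2 transcript had 6 to 14 counts in the WT embryos and 2 to 8 in the CDX2 KO embryos. Once normalized it was likewise below every WT embryo in all 4 CDX2 KO embryos, as were 2.33% of all transcripts listed. It was also below every WT embryo in all 4 GATA3 KO embryos, beside 10.2% of all transcripts listed. There its log2 fold change was -1.50 in the fit with no filter (limma adjusted p = 0.175). TE markers were read in every library, their summed level being 3939 to 9388 in WT and 4512 to 6320 in GATA3 KO embryos, and 5527 to 14509 in WT and 2691 to 9157 in CDX2 KO embryos. In the table of GATA3 KO the largest parts of these sums came from KRT8 and KRT18, at means of 2870 and 1594 normalized counts. Within the TE list 3 of 11 tested markers passed in GATA3 KO embryos, beside 2.01% of all transcripts tested. One is GATA3, the edited gene itself, which is not an independent marker here. The others are GATA2 (lower, log2 fold change -1.16, limma adjusted p = 0.0344) and TFAP2C (higher, 1.03, limma adjusted p = 0.0442). Of 6 tested primitive endoderm markers 1 passed there, APOA1 (lower, -1.55, limma adjusted p = 0.0295). In the fit with no filter 5 TE markers passed in GATA3 KO embryos, the edited GATA3 again among them. Those added were SLC34A2 (-1.40, limma adjusted p = 0.0518 with the filter and 0.0336 without) and KRT19 (-1.21, 0.0636 and 0.0471). After CDX2 KO 0 of 12 tested TE markers passed, and 3 had a positive log2 fold change, beside 39.5% of all transcripts tested. SLC34A2 and GATA2 were below every WT embryo in all 4 of these KO embryos, beside 3.36% of all transcripts tested, and SLC34A2, at -3.34, just missed the threshold (limma adjusted p = 0.0505) and passed in the fit with no filter (limma adjusted p = 0.00253). The part of these marker differences in the Hippo values was not tested. The summed level of the ICM markers overlapped between the groups, at 138 to 188 in WT against 76.7 to 211 in GATA3 KO embryos and 176 to 253 in WT against 144 to 284 in CDX2 KO embryos.

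Differences between groups were fitted with limma on log2(normalized count + 1) over all transcripts whose mean reached 10, and p-values were adjusted over all of these (Benjamini-Hochberg). To pass, a transcript needed an adjusted p of 0.05 or less together with a rise of 1.5-fold or more or a fall to 0.6 or less of the WT level. Fold changes are on this log2(normalized count + 1) scale, where the added 1 draws those of low transcripts toward 0 and a difference of mean logs can depart from the ratio of the means in either direction. By this rule 86 of 4271 transcripts (2.01%) passed in GATA3 KO embryos, 66 of them higher (1.55%) and 20 lower (0.468%). The split of the calls depended on the scaling, with 57 of 105 calls lower under quantile normalization and 69 of 126 lower under edgeR. In CDX2 KO embryos 0 of 5719 transcripts passed (0.0%), with 187 at an unadjusted p under 0.05, 1 called by edgeR and 9 by DESeq2. The median log2 fold change of all transcripts tested was 0.11 in the first table and -0.15 in the second, and 0.0027 and 0.027 with the size factors of DESeq2. With 1 embryo left out the count in GATA3 KO embryos ranged from 1 to 293.

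No Hippo gene of the 5 with a row passed the test in either KO group. WWTR1 and STK3 reached a mean of 10 in both tables and were tested there. SAV1, LATS1 and MOB1A did not, and their values are given by embryo with a limma fit over all transcripts listed, in which 172 of 8576 (2.01%) passed in GATA3 KO embryos and 2 of 12047 (0.0166%) in CDX2 KO embryos. All 10 of their 95% intervals include 0. Of these, 9 reach beyond a 1.5-fold rise, that of MOB1A in CDX2 KO embryos being the exception, and 4 reach beyond a fall to 0.6, namely those of MOB1A in both tables and of STK3 and LATS1 in CDX2 KO embryos.

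WWTR1 was the only coactivator of the pathway that could be read. Levels of different genes are not ranked here, since the counts are not corrected for transcript length. In the table of GATA3 KO the normalized counts of WWTR1 were 23.7, 20.5 and 14.0 in WT embryos 1 to 3 against 21.7, 29.3, 33.4 and 32.8 in GATA3 KO embryos 3 to 6. These values rest on 30, 19 and 9 counts in the WT embryos and on 15, 68, 28 and 40 counts in the KO embryos. GATA3 KO embryos 4, 5 and 6 lay above every WT embryo and embryo 3 lay among them. Of all transcripts tested, 32.9%, 35.4% and 34.1% were above every WT embryo in embryos 4, 5 and 6. Means of WWTR1 were 19.4 ± 4.94 (SD, n = 3) without and 29.3 ± 5.37 (SD, n = 4) with GATA3 KO. This corresponds to a log2 fold change of 0.58 (standard error 0.30, 95% interval -0.050 to 1.22), which did not pass the test (limma, Benjamini-Hochberg adjusted p = 0.259). With 1 embryo left out it ran from 0.38 (without WT embryo 3) to 0.74 (without WT embryo 1).

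In the table of CDX2 KO, WWTR1 was at 38.1, 27.6 and 19.5 normalized counts in WT embryos 1 to 3 and at 18.4, 25.6, 62.2 and 48.3 in CDX2 KO embryos 2 to 5. Embryos 4 and 5 were above every WT embryo, embryo 3 was among them and embryo 2 was below all 3. Of all transcripts tested, 25.1% and 24.6% were above every WT embryo in embryos 4 and 5, and 37.2% were below in embryo 2. The spread of WWTR1 within the KO group was wide, with a mean of 38.6 ± 20.2 (SD, n = 4) against 28.4 ± 9.31 (SD, n = 3) in WT embryos. WWTR1 had a log2 fold change of 0.33 here (standard error 0.48, 95% interval -0.71 to 1.36, limma adjusted p = 0.928), which was 0.050 without CDX2 KO embryo 4 and 0.62 without CDX2 KO embryo 2.

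**Figure D1:**
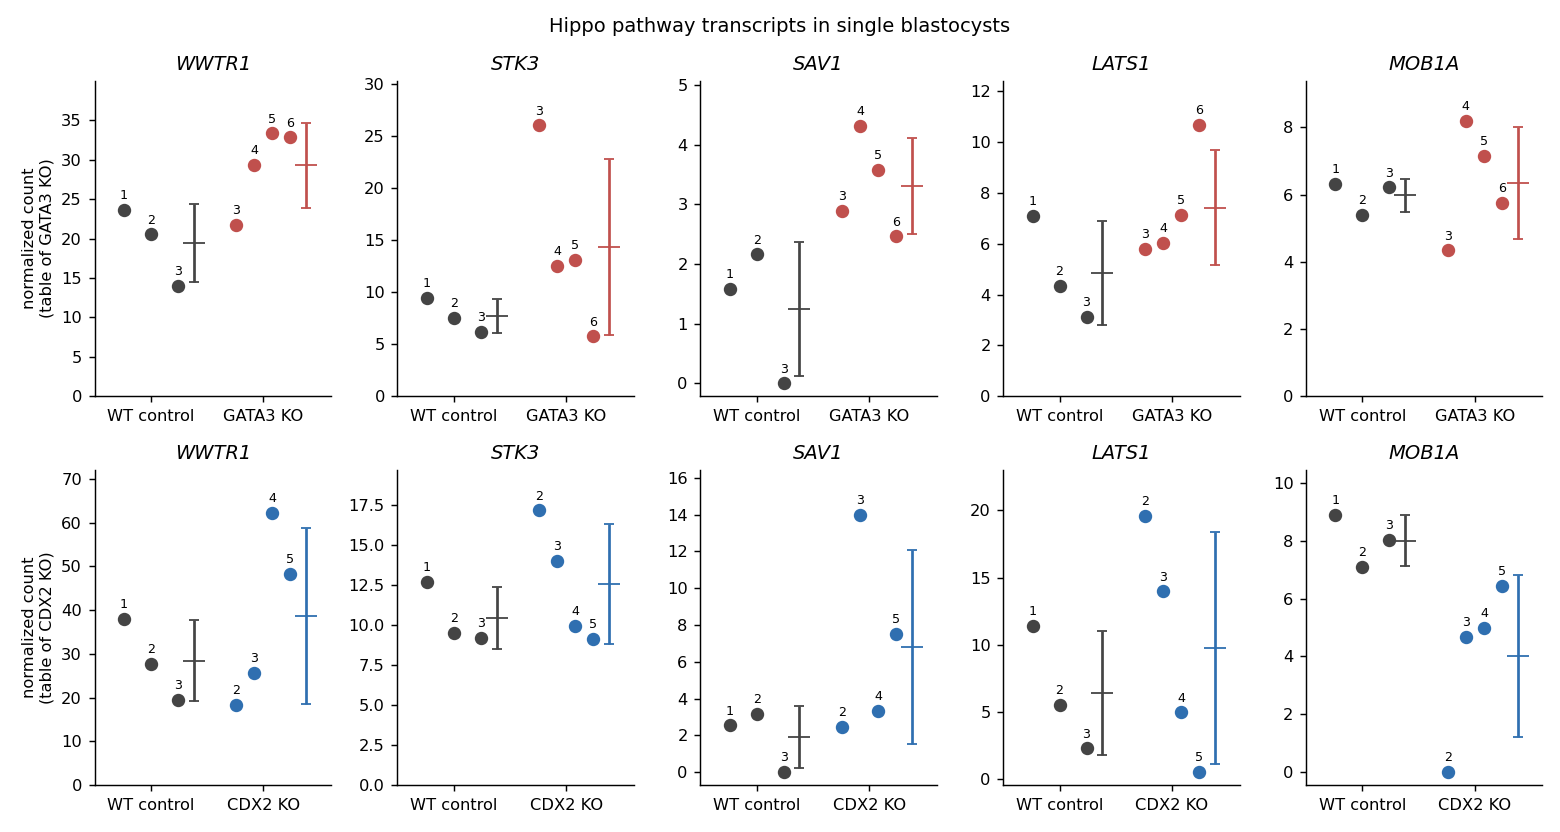
Normalized count of the 5 Hippo genes with a row (vertical axes) in each embryo, with the table of GATA3 KO in the upper row and that of CDX2 KO in the lower row. Points are embryos with their number, and bars give the mean and SD of the group. WWTR1 lies above every WT embryo in GATA3 KO embryos 4, 5 and 6, as do 32.9% to 35.4% of all transcripts tested in each of these. SAV1 does so in all 4 GATA3 KO embryos (7.07% of all transcripts listed). MOB1A is below every WT embryo in all 4 CDX2 KO embryos (2.33% of all transcripts listed).

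STK3 is one of the 2 kinases at the top of the cascade. Its normalized counts were 9.47, 7.56 and 6.22 in WT embryos 1 to 3, whereas they were 26.1, 12.5, 13.1 and 5.75 in GATA3 KO embryos 3 to 6. Embryos 3, 4 and 5 were above the WT embryos and embryo 6, at 7 counts, was below them. Of all transcripts tested, 35.9%, 32.9% and 35.4% were above every WT embryo in embryos 3, 4 and 5, and 23.0% were below in embryo 6. The mean of STK3 was 7.75 ± 1.63 (SD, n = 3) in WT embryos and 14.3 ± 8.48 (SD, n = 4) after GATA3 KO. Thus STK3 reached the mean of 10 through the KO embryos. Its log2 fold change was 0.66 (standard error 0.49, 95% interval -0.36 to 1.68, limma adjusted p = 0.439), with 0.33 without GATA3 KO embryo 3 and 0.997 without GATA3 KO embryo 6. In the other table STK3 was at 12.7, 9.48 and 9.17 in WT embryos and at 17.2, 14.0, 9.95 and 9.13 in CDX2 KO embryos 2 to 5. The groups overlapped, and the log2 fold change was 0.22 (standard error 0.50, 95% interval -0.87 to 1.30, limma adjusted p = 0.946), or 0.063 without CDX2 KO embryo 2 and 0.35 without WT embryo 1. STK4, the other kinase of the pair, was under the mean of 10 in both tables, with log2 fold changes of 0.18 in GATA3 KO and 0.41 in CDX2 KO embryos in the fit over all transcripts.

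SAV1 is the scaffold that holds STK3 and STK4 to their substrates. It was read with 2, 2 and 0 counts in WT embryos 1 to 3 and with 2, 10, 3 and 3 counts in GATA3 KO embryos 3 to 6. In normalized counts this was 1.58, 2.16 and 0 against 2.89, 4.31, 3.57 and 2.46. All 4 KO embryos were above every WT embryo, as were 7.07% of all transcripts listed, but all WT embryos and GATA3 KO embryo 3 were under the floor of 3 counts. The fitted log2 fold change was 1.08 (standard error 0.68, 95% interval -0.32 to 2.48, limma adjusted p = 0.365), a value that depends on the 1 added to each count. It was 0.42 with a pseudocount of 5 and 0.58 without WT embryo 3. In the table of CDX2 KO, SAV1 had 4, 4 and 0 counts in WT and 2, 6, 4 and 14 counts in CDX2 KO embryos 2 to 5, or 2.54, 3.16 and 0 against 2.45, 14.0, 3.32 and 7.52 normalized counts. KO embryos 3, 4 and 5 were above the WT embryos, and the log2 fold change was 1.43 (standard error 0.85, 95% interval -0.32 to 3.18, limma adjusted p = 0.940), falling to 0.71 with a pseudocount of 5 and to 0.78 without WT embryo 3.

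LATS1, the kinase that phosphorylates the coactivators, was at 7.10, 4.32 and 3.11 normalized counts in WT embryos 1 to 3 and at 5.79, 6.03, 7.15 and 10.7 in GATA3 KO embryos 3 to 6. The value of WT embryo 3 was under the floor of 4.66 in that embryo. The groups overlapped, with 2 KO embryos above every WT embryo. The fit gave LATS1 a difference of 0.55 on the log2 scale (standard error 0.50, 95% interval -0.47 to 1.57, limma adjusted p = 0.542), with 0.32 without WT embryo 3 and 0.81 without WT embryo 1. Among the CDX2 KO embryos LATS1 differed more from embryo to embryo than between the groups. It was at 19.6, 14.0, 4.98 and 0.54 in embryos 2 to 5, the last value resting on 1 count in the most deeply sequenced embryo, and at 11.4, 5.53 and 2.29 in the WT embryos. WT embryo 3 was again under its floor, here 3.44. The log2 fold change of 0.18 (standard error 0.84, 95% interval -1.57 to 1.93, limma adjusted p = 0.990) turned negative when 1 of 3 embryos was left out, at -0.30 without WT embryo 3, -0.32 without CDX2 KO embryo 2 and -0.17 without CDX2 KO embryo 3, and was 0.93 without CDX2 KO embryo 5.

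MOB1A, the activating partner of the LATS kinases, had the most even normalized counts of the 5 genes among the WT embryos. It had at most 14 counts in any WT embryo, too few to tell evenness from counting error. It was at 6.31, 5.40 and 6.22 normalized counts in WT embryos 1 to 3 and at 4.34, 8.19, 7.15 and 5.75 in GATA3 KO embryos 3 to 6, where the groups overlapped. MOB1A was near 0 here, at a log2 difference of 0.049 (standard error 0.48, 95% interval -0.94 to 1.04, limma adjusted p = 0.965), and the estimate became slightly negative without WT embryo 2 (-0.012), without GATA3 KO embryo 4 (-0.068) or without GATA3 KO embryo 5 (-0.0099). In the table of CDX2 KO, MOB1A was at 8.88, 7.11 and 8.02 in the WT embryos and at 0, 4.66, 4.98 and 6.44 in CDX2 KO embryos 2 to 5, from 14, 9 and 7 counts against 0, 2, 6 and 12 counts. All 4 CDX2 KO embryos were below every WT embryo, which held for 2.33% of all transcripts listed in that table. The count of 0 in CDX2 KO embryo 2 allows up to 3.68 normalized counts, still under the lowest WT embryo, and the 2 counts of embryo 3 were under its floor of 6.99. The mean was 4.02 ± 2.79 (SD, n = 4) in CDX2 KO against 8.0 ± 0.89 (SD, n = 3) in WT embryos. MOB1A did not pass the test, its log2 fold change being -1.17 (standard error 0.80, 95% interval -2.84 to 0.49, limma adjusted p = 0.940), and the estimate was -0.51 without CDX2 KO embryo 2 and -0.59 with a pseudocount of 5. Its paralog MOB1B had a log2 fold change of 0.064 in GATA3 KO and of -0.077 in CDX2 KO embryos.

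**Figure D2:**
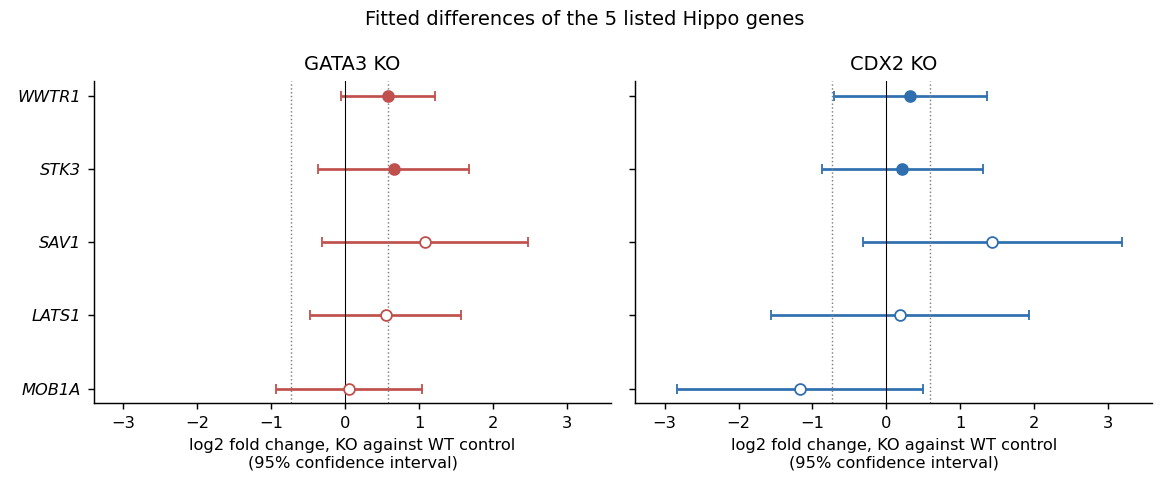
Log2 fold change of KO against WT embryos (horizontal axis) for the 5 Hippo genes, with 95% confidence intervals from limma. Filled points are genes tested at a mean of at least 10, open points come from the fit over all transcripts listed, and dotted lines mark fold changes of 0.6 and 1.5. All 10 intervals include 0, and in these fits the estimates run from -1.17 for MOB1A to 1.43 for SAV1, both in CDX2 KO embryos.

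Since the WT embryos are the same in both tables, their counts could be set side by side. The 5 Hippo genes together had 61, 37 and 19 counts in WT embryos 1, 2 and 3 in the table of GATA3 KO and 116, 67 and 34 counts in that of CDX2 KO. The ratios of 1.90, 1.81 and 1.79 were close to the ratios of 1.86, 1.80 and 1.85 of the transcripts with at least 10 counts in the first table. The counts of the WT embryos were thus lower in the table of GATA3 KO by a like factor for these genes and for the others.

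A further 99 genes of the pathway were described from 5 lists written by function, of which 69 had a row in the table of GATA3 KO and 75 in that of CDX2 KO. Of the 40 tested in GATA3 KO embryos 2 passed, YWHAQ and RHOA, both higher, beside the 2.01% of all transcripts. The study had already reported higher RHOA after GATA3 KO from these embryos, and the lists were chosen with earlier results known. The 2 of 40 can therefore not be weighed against that share. The median log2 fold change of the 40 was 0.14, against 0.11 for all transcripts tested. Of the tested genes BTRC reached the mean of 10 through the GATA3 KO embryos, and GADD45A did so through the WT embryos. Among the tested genes 3 were above every WT embryo in all 4 GATA3 KO embryos, beside 11.9% of all transcripts tested, and 0 were below, beside 7.05%. Of the 69 genes with a row, 5 were below every WT embryo in all 4, beside 10.2% of all transcripts listed, namely VGLL4, RASSF1, LIMD1, ARHGEF17 and ANKRD1, none of which reached the mean of 10. With CDX2 KO 0 of 52 passed in limma, as was the case for all transcripts, and the median was -0.13 against -0.15, with 7 genes (MAP4K5, TEAD2, RASSF1, STRN, IGFBP3, CCN2 and CRIM1) at a mean of 10 through the KO embryos. Here 3 of the 52 were above every WT embryo, beside 2.52%, and 0 were below, beside 3.36%.

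**Figure D3:**
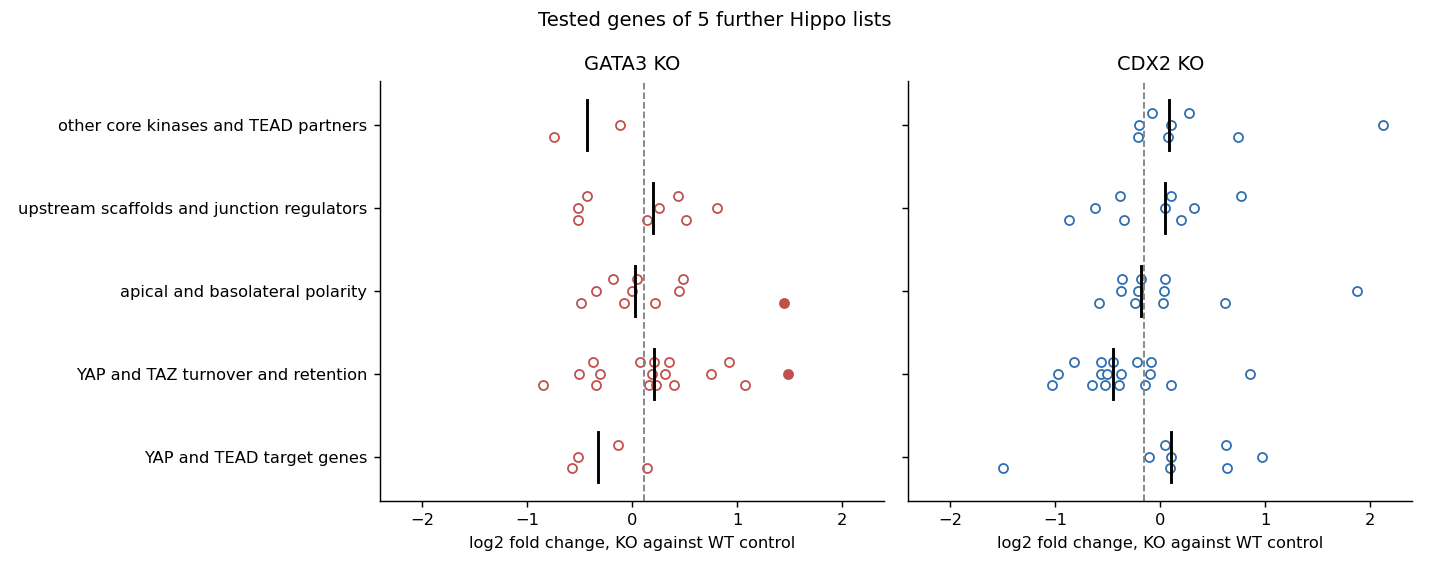
Log2 fold change of KO against WT embryos (horizontal axes) for the tested genes of 5 further Hippo lists, in GATA3 KO (left) and CDX2 KO embryos (right). Circles are genes, filled where they passed the test, thick bars are list medians and dashed lines the median of all transcripts tested. RHOA and YWHAQ are the 2 filled circles, and in CDX2 KO embryos 2 of 17 turnover and retention genes lie above 0 in this fit, where 39.5% of all transcripts tested do.

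YWHAQ belongs to the YWHA family of adaptors, which bind phosphorylated YAP1 and WWTR1 and many other phosphoproteins in the cytoplasm. Its transcript (NM_001078127) was at 275, 99.4 and 97.9 normalized counts in WT embryos 1 to 3 and at 475, 335, 461 and 313 in GATA3 KO embryos 3 to 6. All 4 KO embryos were above every WT embryo, like the 11.9% of transcripts given above. The mean was 157 ± 102 (SD, n = 3) in WT embryos and 396 ± 83.7 (SD, n = 4) after GATA3 KO, a log2 fold change of 1.48 (standard error 0.32, limma adjusted p = 0.0245). The call was kept under all 7 other settings and lost when WT embryo 2 or 3 or GATA3 KO embryo 3, 4 or 5 was left out, with log2 fold changes of 1.23 to 1.97 and adjusted p-values up to 0.152 over the 7 embryos. In CDX2 KO embryos 2 to 5 YWHAQ was at 123, 69.9, 315 and 296, against 423, 131 and 138 in WT embryos, and did not pass (log2 fold change -0.23, standard error 0.59, limma adjusted p = 0.952).

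RHOA, a small GTPase that shapes the actin cortex and acts upstream of the LATS kinases, was at 63.9, 24.9 and 31.1 in WT embryos and at 126, 110.3, 82.2 and 93.6 in GATA3 KO embryos 3 to 6. Its log2 fold change was 1.44 (standard error 0.30, limma adjusted p = 0.0245). The call held under all 6 other settings that tested it and was lost without WT embryo 2 or 3 or GATA3 KO embryo 3 or 4 (adjusted p up to 0.14), the log2 fold change being 1.17 to 1.83 with 1 embryo left out. After CDX2 KO RHOA did not pass (log2 fold change -0.22, limma adjusted p = 0.954). YWHAQ and RHOA were alike in that WT embryo 1 was well above WT embryos 2 and 3 for both. CDC42, a small GTPase of the apical polarity complex, had a log2 fold change of 0.050 in GATA3 KO (limma adjusted p = 0.934) and of -0.24 in CDX2 KO embryos (limma adjusted p = 0.933).

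The embryos differed in Y-linked transcripts as well, with 29 to 98 counts in the WT embryos of the table of GATA3 KO, 68 in GATA3 KO embryo 6 and 0 to 2 in GATA3 KO embryos 3, 4 and 5. GATA3 KO embryo 6, the 1 KO embryo of this table with Y-linked counts in the WT range, had the lowest YWHAQ of the 4 KO embryos (313) and the next to lowest RHOA (93.6), and both values were above every WT embryo. MSN, which encodes the membrane to actin linker moesin and is X-linked, differed with the Y-linked counts in this table. It was at 93.9, 77.8 and 93.3 in WT embryos, at 223, 168 and 204 in GATA3 KO embryos 3 to 5 and at 75.5 in embryo 6, and its log2 fold change was 0.81 (standard error 0.31, limma adjusted p = 0.146). In the table of CDX2 KO, MSN was at 140.2, 102 and 123 in WT embryos and at 184, 156, 378 and 165 in CDX2 KO embryos 2 to 5, the last of which had 155 Y-linked counts and the others 0. All 4 were above every WT embryo, and the log2 fold change was 0.77 (standard error 0.42, limma adjusted p = 0.900). The part of the Y-linked difference in these values was not tested.

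**Figure D4:**
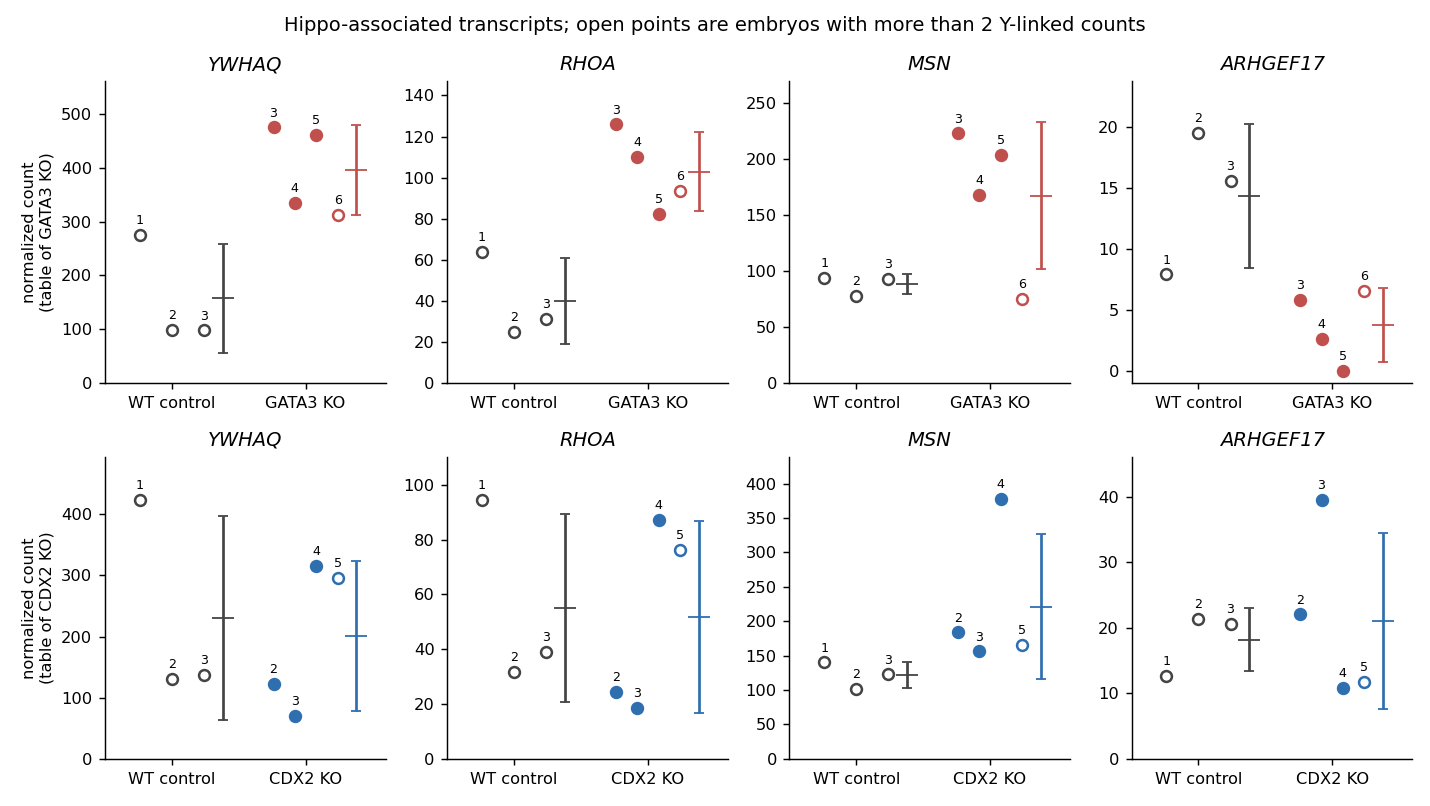
Normalized count (vertical axes) of YWHAQ, RHOA, MSN and ARHGEF17 in each embryo, with the table of GATA3 KO in the upper row and that of CDX2 KO in the lower row. Points are embryos with their number, open where the embryo had more than 2 Y-linked counts, and bars give the mean and SD. GATA3 KO embryos are all above the WT embryos for YWHAQ and RHOA and all below them for ARHGEF17.

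The genes of YAP and TAZ turnover and retention comprise the YWHA adaptors, the SCF ubiquitin ligase and phosphatases. In GATA3 KO embryos 12 of 17 tested genes had a positive log2 fold change, as did 57.2% of all transcripts tested. YWHAQ was the 1 that passed. The median was 0.21, and 0.10 to 0.11 after quantile normalization, median-ratio rescaling and with edgeR and DESeq2. It was 0.095 above that of all transcripts, a gap that ran from 0.035 (without WT embryo 3) to 0.14 (without GATA3 KO embryo 5) with 1 embryo left out. SKP1, a subunit of the SCF ligase, had a log2 fold change of 1.07 (limma adjusted p = 0.0663) and PPP1CA, a catalytic subunit of protein phosphatase 1, one of 0.92 (limma adjusted p = 0.0935). YWHAE, of the highest mean count in the list, had one of 0.079 (limma adjusted p = 0.859). After CDX2 KO 2 of 17 had a positive log2 fold change and 15 a negative one, whereas 39.5% of all transcripts tested were positive in the same fit. STRN, 1 of the 2 positive genes, reached the mean of 10 through the KO embryos. The median was -0.45, against -0.15 for all transcripts, and 0 passed with limma, as was so with every transcript tested. The median stayed below that of all transcripts with a pseudocount of 5, under each scaling and test and with each embryo left out, while 12 rather than 15 of 17 were negative after quantile normalization and with edgeR and DESeq2. Both tables share the WT embryos, and the difference between them was not tested.

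By embryo, these low values came from CDX2 KO embryos 2 and 3, the 2 KO embryos with the fewest counts in that table. In embryo 2, 11 of the 17 turnover and retention genes were below every WT embryo (64.7%), and in embryo 3 there were 12 (70.6%), whereas 37.2% and 47.7% of all transcripts tested were below in the same embryos. In embryos 4 and 5 only 2 and 3 of the 17 were below every WT embryo, beside 24.2% and 18.6% of all transcripts. SKP1 ranged from 9.32 in embryo 3 and 79.7 in embryo 2 to 285 in embryo 4 and 356 in embryo 5, against 107 to 296 in WT embryos. YWHAB was at 172 and 114 in embryos 2 and 3, below the WT range of 254 to 443, and at 406 and 373 in embryos 4 and 5, within it. EZR, which encodes the membrane linker ezrin of microvilli, was likewise below the WT range in embryos 2 and 3 only, with 528 and 384 in embryos 2 and 3, 1692 and 1874 in embryos 4 and 5 and 1098 to 2097 in WT embryos. Of the marker lists, those of TE and of cumulus and granulosa cells placed the same 2 embryos outside the WT range on the same side, which those of ICM and primitive endoderm did not. In a summed level the genes with the highest counts weigh most. The summed level of the TE markers was 4424 in embryo 2 and 2691 in embryo 3, below the WT range of 5527 to 14509, against 9157 and 7465 in embryos 4 and 5. That of the cumulus and granulosa markers, cells that surround the oocyte, was 63.7 and 60.6 in embryos 2 and 3, above the WT range of 14.6 to 35.5, against 24.1 and 22.6 in embryos 4 and 5. It came from 8 of 9 markers with a row, on 52 and 26 counts in embryos 2 and 3 and 1 of the 8 at 0 in each. The part of depth and of other cell types in these values was not tested.

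Among the other core kinases and TEAD partners 2 genes were tested in GATA3 KO embryos and 8 in CDX2 KO embryos, and 0 passed in either. TAOK3, of a kinase family that can activate STK3 and STK4, was at 60.8, 34.6 and 21.8 in WT and at 17.4, 24.6, 17.9 and 25.5 in GATA3 KO embryos (log2 fold change -0.74, limma adjusted p = 0.201), and had a log2 fold change of -0.20 in CDX2 KO embryos. STK38, a kinase related to the LATS kinases, had log2 fold changes of -0.12 and 0.071. Chosen after its values were seen, TEAD2, a DNA binding partner of the coactivators, was at 0, 3.16 and 6.88 in WT embryos and at 9.80, 39.6, 8.29 and 8.05 in CDX2 KO embryos 2 to 5. All 4 were above every WT embryo, and the highest of them, embryo 3, was the embryo with the fewest counts. TEAD2 reached the mean of 10 through the KO embryos, with a mean of 3.35 in WT and 16.4 in CDX2 KO embryos. Its log2 fold change of 2.11 did not pass (standard error 1.05, limma adjusted p = 0.900) and was 1.28 without WT embryo 1, 2.76 without WT embryo 3 and 1.23 with a pseudocount of 5. In GATA3 KO embryos TEAD2 was at 1.45, 8.62, 8.34 and 0.82 against 0, 2.16 and 4.66. Of the 75 pathway genes with a row in the table of CDX2 KO, 4 were above every WT embryo in all 4 KO embryos, beside 3.41% of all transcripts listed. The 1 of them not tested was VGLL4, a cofactor that competes with YAP1 for TEAD, at 6.34, 5.53 and 4.59 in WT and 7.35, 14.0, 6.63 and 6.98 in CDX2 KO embryos 2 to 5. In GATA3 KO embryos it was below every WT embryo, at 2.89, 2.58, 0 and 2.46 against 3.95, 4.32 and 3.11, values near the floor of 3 counts.

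Of the upstream scaffolds and junction regulators, 8 were tested in GATA3 KO embryos, with a median of 0.20, and 9 in CDX2 KO embryos, and 0 passed. The median ran from 0.013 (quantile normalization) to 0.19 (pseudocount of 5) over the other settings, and from 0.075 (without WT embryo 2) to 0.31 (without WT embryo 1) with 1 embryo left out. No median is given for CDX2 KO, where RASSF1 reached the mean of 10 through the KO embryos and the sign of the median depended on the embryos included. CTNNA1, the junction protein alpha-catenin, was at 84.4, 62.7 and 80.8 in WT and at 120.1, 111, 118 and 85.4 in GATA3 KO embryos, all of them above the WT embryos, with a log2 fold change of 0.51 (limma adjusted p = 0.223). AMOT, an X-linked scaffold that holds the coactivators at junctions, was named after its values were seen. It was at 3.95, 3.24 and 0 in WT embryos and at 7.24, 5.17, 4.76 and 0.82 in GATA3 KO embryos, and in the other table at 6.34, 3.95 and 0 against 27.0, 18.6, 2.49 and 9.13 in CDX2 KO embryos 2 to 5. It was under the mean of 10 in both tables, and 3 of 4 KO embryos exceeded the WT embryos in each.

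The polarity genes had a median of 0.026 over 10 tested in GATA3 KO embryos, with RHOA the 1 that passed, and of -0.19 over 11 tested in CDX2 KO embryos, where 0 passed. Neither sign was stable. The first median was -0.15 after quantile normalization, -0.082 after median-ratio rescaling, -0.088 with edgeR, -0.090 with DESeq2 and -0.060 without GATA3 KO embryo 3. The second was 0.021 with edgeR, 0.018 with DESeq2, 0.034 without CDX2 KO embryo 2 and 0.061 without CDX2 KO embryo 3. MARK2, a basolateral polarity kinase chosen after its values were seen, was at 23.3, 44.3, 28.2 and 23.1 in CDX2 KO embryos 2 to 5 and at 19.7, 11.1 and 1.15 in WT embryos. All 4 KO embryos were above the WT embryos, and the log2 fold change was 1.87 (standard error 0.66, limma adjusted p = 0.900), or 2.54 without WT embryo 1 and 0.91 without WT embryo 3. In GATA3 KO embryos MARK2 lay within the WT range in all 4.

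Of 13 target genes of YAP and TEAD with a row in the table of GATA3 KO 4 were tested, of which GADD45A reached the mean of 10 through the WT embryos, and 0 passed. MYOF, a membrane repair protein, had a log2 fold change of -0.14, and PTPN14, a phosphatase that binds YAP1, one of -0.52 (limma adjusted p = 0.437). With CDX2 KO 8 of 15 were tested, of which CCN2, CRIM1 and IGFBP3 reached the mean of 10 through the KO embryos, 0 passed, and MYOF and PTPN14 had log2 fold changes of -0.10 and 0.11. The classical targets CCN1 and CCN2, secreted matrix proteins, were read with at most 9 and 17 counts in the table of GATA3 KO, at 1.55 to 7.10 normalized counts of CCN1 in WT against 3.02 to 4.34 in GATA3 KO embryos and at 2.16 to 4.73 of CCN2 in WT against 3.57 to 11.5. In the table of CDX2 KO, CCN1 was at 8.88, 3.16 and 1.15 in WT and at 19.6, 0, 24.1 and 7.52 in CDX2 KO embryos 2 to 5 (log2 fold change 0.87 in the fit over all transcripts). CCN2 was at 7.61, 3.16 and 4.59 against 4.90, 28.0, 19.9 and 3.76 (log2 fold change 0.97, limma adjusted p = 0.900). For each of them 2 of 4 KO embryos were above every WT embryo and the groups overlapped.

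Of the 13 targets with a row in the table of GATA3 KO, 2 were below every WT embryo in all 4 KO embryos, beside 10.2% of all transcripts listed, and are named for that reason after their values were seen. ARHGEF17 was at 7.89, 19.5 and 15.5 in WT embryos and at 5.79, 2.58, 0 and 6.57 in GATA3 KO embryos 3 to 6. In the fit over all transcripts its log2 fold change was -1.97 (standard error 0.61, limma adjusted p = 0.0758), and it did not pass. Over the alternatives the adjusted p ran from 0.0431 (without GATA3 KO embryo 6) to 0.361 (without WT embryo 2) and the log2 fold change from -2.32 to -1.17, the pass being made without GATA3 KO embryo 6 and with a pseudocount of 5 (adjusted p = 0.0460) alone. ANKRD1, an ankyrin repeat protein, was at 2.37, 3.24 and 10.9 against 0, 0.43, 1.19 and 1.64, the KO values resting on 0 to 2 counts, and had a fitted log2 fold change of -1.71 (limma adjusted p = 0.175). After CDX2 KO ARHGEF17 was at 22.1, 39.6, 10.8 and 11.8 against 12.7, 21.3 and 20.6, with a log2 fold change of 0.047, and the groups overlapped for ANKRD1 as well.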

How the data were processed

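RNA of 11 single blastocysts was sequenced (Smart-seq2). The authors, per the labels, used Trimmomatic, HISAT2 (genome ARS-UCD1.2) and featureCounts, and normalized with DESeq2. The deposited signal is a normalized count per transcript and embryo, scaled within each table. The deposited log2 fold changes, Wald statistic (a score) and p-values are the authors' own comparison and were not used. All values (100.0%) were whole multiples of one step per embryo, within 0.01, from which counts were recovered. Of the columns of sample values, 0 were left unused. WT columns were matched by number and KO columns, numbered 3 to 6 and 2 to 5, by group. For 98.6% of transcripts a symbol was found in RefSeq's gene table (ARS-UCD2.0), whose coordinates are not given, since the builds differ.

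limma 3.58.1 (R 4.3.3) used log2(normalized count + 1), the prior following the mean. It was tested on simulated data first. Alternatives were a pseudocount of 5, a minimum mean of 0 or 100, quantile and median-ratio scaling, each embryo left out in turn, and 2 tests of the recovered counts, edgeR 4.0.16 (quasi-likelihood, TMM) and DESeq2 1.42.0. The Hippo genes and lists were chosen with earlier results of these data known. Named beside them were genes of the lists past the threshold and the 2 of each list with the highest mean count. Others are named as chosen after their values were seen, also CCN1, CCN2, SKP1, PPP1CA, CTNNA1, STK4 and MOB1B. p-values measure the spread between embryos, which the labels do not describe further. Some items were not analysed here.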

Additional observations from a re-analysis of the deposited data

Results flagged for a closer look

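In the KO groups 2 values stood far from the other 3 embryos of their group by Dixon's test, among 32 sets of 4 values examined, where chance gives about 1.6 (1 in 20). MSN was at 378 normalized counts in CDX2 KO embryo 4 against 156 to 184 in CDX2 KO embryos 2, 3 and 5. The GATA3 transcript was at 9.85 in GATA3 KO embryo 6, the other 3 GATA3 KO embryos being at 12.9 to 13.1, all of them below the WT embryos.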

How the results depend on the processing

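Over 54 fits under other settings and 70 that left out 1 embryo, the 5 Hippo genes stayed short of the threshold in both KO groups wherever an adjusted p was given, which DESeq2 did not do for STK3 in either table. Their direction held in all 54 and in 64 of the 70, and turned for MOB1A in GATA3 KO (range 0.19 to -0.068 without 1 embryo, with -0.012 without WT embryo 2, -0.068 without KO embryo 4 and -0.0099 without KO embryo 5) and for LATS1 in CDX2 KO (range 0.93 to -0.32, with -0.30 without WT embryo 3, -0.32 without KO embryo 2 and -0.17 without KO embryo 3). With a mean of at least 100 none of the 5 could be tested. In GATA3 KO embryos 86 transcripts passed, against 172 with no filter, 37 with a mean of at least 100, 145 with a pseudocount of 5 and 158 with DESeq2, and from 1 to 293 when 1 embryo was left out (293, 1 and 18 without WT embryos 1, 2 and 3, and 1, 2, 39 and 183 without KO embryos 3, 4, 5 and 6). In CDX2 KO embryos 0 passed, against 2 with no filter or quantile normalization, 1 with a mean of at least 100, a pseudocount of 5, median-ratio rescaling or edgeR, 9 with DESeq2, and 0 to 1 without 1 embryo. The cause of these shifts was not tested. Counts of 0 to 19 per embryo limited SAV1, LATS1 and MOB1A. No paired analysis was possible because the numbers on the KO columns do not match the replicate numbers of the labels. Neither the labels nor the study describes pairs of a WT and a KO embryo, so matching numbers alone would not have made such pairs.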

Other observations

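With YAP1 not analysed, the transcripts most like WWTR1 over the 7 embryos of each table were looked up instead, a choice made after seeing which genes had a row. By Pearson's r on log2(normalized count + 1) these were RAN (0.98), AKTIP (0.97) and ANP32B (0.97) in the table of GATA3 KO and IDI1 (0.97), MRPL30 (0.96) and MYCBP (0.96) in that of CDX2 KO. The points share their libraries, and the WT embryos are in both tables. The 3 names differed entirely between the tables.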
